A study of Mus musculus with 16 samples.

Results

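The chemokine ligands were examined in 16 primary rhabdoid tumors (RT) of the mouse. They were taken as every gene of the count table whose symbol is a numbered Ccl or Cxcl, or is Cx3cl1, Xcl1, Pf4 or Ppbp, which gave 41 of 24982 genes. A count was recorded in at least 1 tumor for 37 of the 41. In 33 of them at least 1 tumor exceeded 3 counts, which was taken as the floor of detection. The other 8 ligands are accounted for below.

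All 16 mice carried the genotype Smarcb1flox/flox;R26-CreERT2, so that every tumor had been induced by the same deletion, and no tumor or tissue with intact Smarcb1 was analysed here. The tamoxifen-dependent Cre is driven from the Rosa26 locus and is not restricted to a cell type. The 5 intra-CNS tumors are the Shh subgroup of the study. They were induced by tamoxifen at E6 and were collected at 30 to 180 days of age. The 11 extra-CNS tumors are its Myc subgroup, and were collected at 52 to 210 days. Of these, 6 were intracranial and 5 extracranial, and tamoxifen had been given at E6 to 2, at E7 to 1 and at E8 to the remaining 8. Subgroup and compartment coincide in these mice, so that they cannot be told apart. Each tumor came from its own mouse and was sequenced in bulk, as polyadenylated RNA from tumor and host cells together. Fewer cells of a type and less RNA per cell therefore cannot be told apart in any value below.

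Between 17889968 and 110177889 reads were counted per tumor, which places the floor of 3 counts between 0.0272 and 0.168 CPM, the counts scaled to a common library size. Smarcb1 itself was detected in every tumor, at 3.99 to 58.1 TPM, a level scaled to gene length and library size in Shh and 6.48 to 43.7 TPM in Myc tumors, and a value per gene does not separate reads of the deleted part. Its highest value was in the Shh tumor of mouse 29048, which also stood apart in the summed level of 4 oligodendrocyte markers (5042.5 TPM, against 19.7 to 106 TPM in the other Shh tumors). The 5 leukocyte markers Ptprc, Cd53, Laptm5, Coro1a and Cd52 were all measured in every tumor, with a sum of 122 to 222 TPM in Shh and 228 to 1798 TPM in Myc tumors. The 7 macrophage markers summed to 497 to 802 TPM in Shh and 584 to 6287 TPM in Myc tumors, and each of the 7 had the higher median in Myc. The 6 fibroblast markers summed to 105 to 525.8 TPM in Shh and 545 to 7795 TPM in Myc tumors, without overlap and each with the higher median in Myc. The part of these cells in the differences below was not tested.

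Chemokines are small secreted proteins that guide the migration of leukocytes along concentration gradients by binding G protein-coupled receptors. They are classed by the spacing of their first cysteines into the CC, CXC, XC and CX3C families, and by function into inflammatory ligands, which are induced in infection, injury and tumors, and homeostatic ligands, which are made steadily in lymphoid, epithelial and other tissues. In tumors they are made by the tumor cells, by fibroblasts and endothelium and by the infiltrating myeloid cells themselves.

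Most of the inflammatory ligands were higher in Myc than in Shh RT, whereas 2 ligands, the skin chemokine Ccl27a and the neuronal chemokine Cx3cl1, were higher in Shh RT. The comparison asked which genes distinguish the 11 Myc from the 5 Shh tumors. It used edgeR's quasi-likelihood test over 21854 genes, and a gene was called where its p, adjusted by Benjamini-Hochberg, was below 0.05 and its log2 fold change beyond 1 in either direction. Of the 37 ligands tested, 18 were called higher in Myc, which is 48.6% of them, against 13.1% of all genes tested. The 2 called higher in Shh compare with 12.9% of all genes. In either direction 20 of 37 ligands were called, against 26% of all genes, and 17 were not. The median log2 fold change (Myc minus Shh) over the 37 ligands tested was 3.62 as fitted, and 2.90 with Cxcl3, Ppbp, Ccl1 and Cxcl17, which exceeded the floor in Myc tumors only, set to their lower bound. It was 3.82 with these bounds when the 4 ligands that exceeded the floor in no tumor were left out. The median over all genes was 0.15. The plot of fold changes by role gives each ligand with its standard error.

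**Figure D1:**
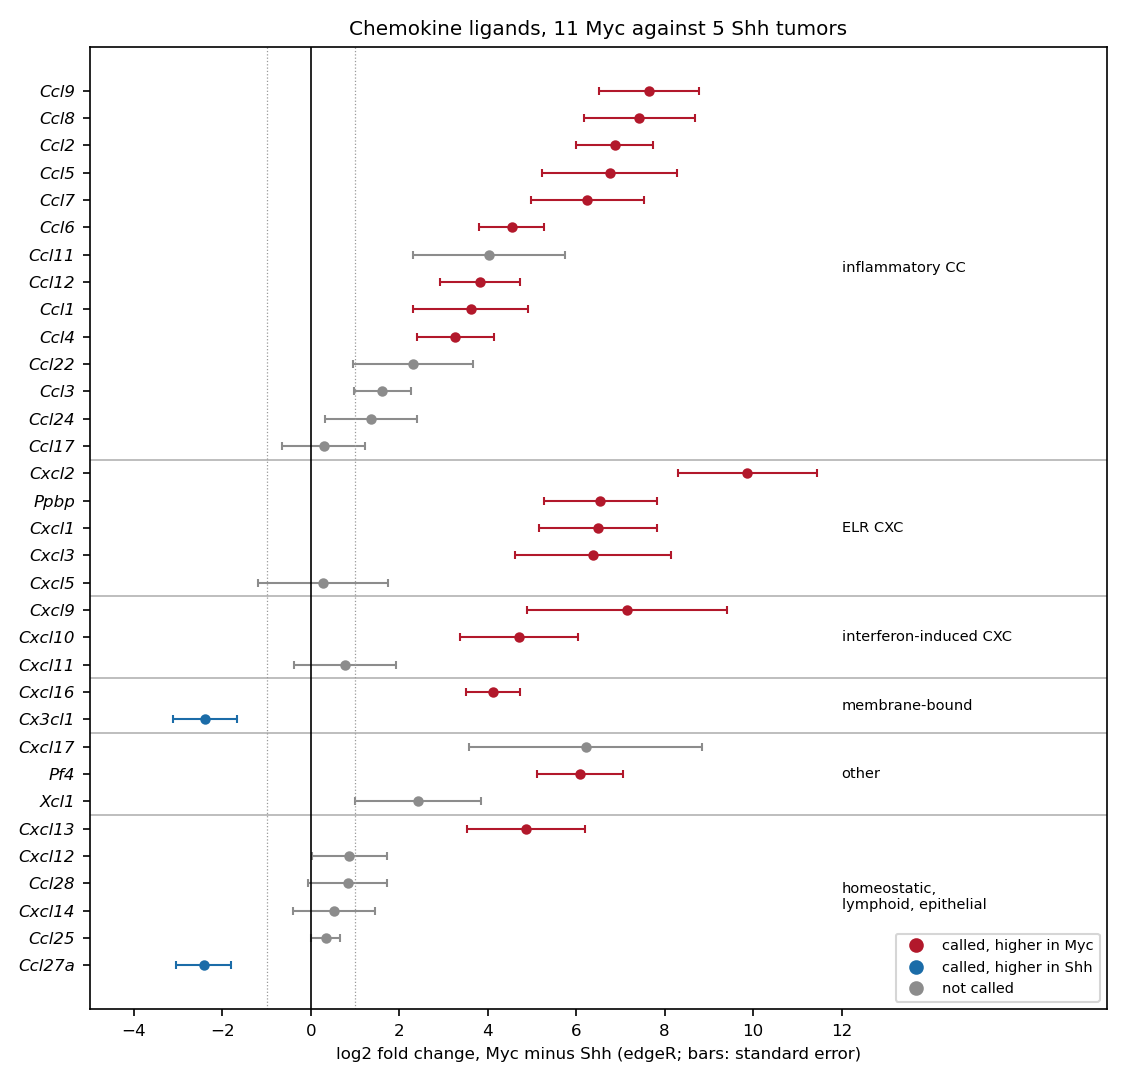
Log2 fold change of the 33 chemokine ligands above the floor, Myc minus Shh (x axis), with the standard error of edgeR as bars and the ligands grouped by role (y axis). The 18 red ligands lie to the right of zero, the 2 blue ligands to the left, and dotted lines mark a log2 fold change of 1 in either direction. The fitted values of Cxcl3, Ppbp, Ccl1 and Cxcl17, which exceeded the floor in no Shh tumor, depend on the prior count of the fit.

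Leaving 1 tumor out at a time gave 17 to 21 called ligands, beside 4766 to 6649 called genes in all. Among the tumors induced at E6 alone (5 Shh and 2 Myc), 17 were called, of which 15 were among the 20. In that run 3533 of 20904 genes were called. With the 6 intracranial Myc tumors alone against Shh, 16 were called, all of them among the 20, beside 4919 of 21418 genes.

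Of the inflammatory CC ligands, the class with the most members, 9 of 16 were called higher in Myc, 0 higher in Shh and 7 not, beside 13.1% of all genes called higher in Myc. Ccl2, which recruits monocytes through Ccr2, stood at 2.70, 3.16, 3.79, 4.16 and 7.56 TPM in the Shh tumors. In the Myc tumors it ranged from 23.1 TPM (43992A) through a median of 299 TPM to 977 TPM (29225D). No Myc tumor came down to the Shh level, and the log2 fold change was 6.87 ± 0.87 (standard error, edgeR adjusted p = 3.94e-05). Ccl7, a neighbor of Ccl2 on chromosome 11 and another ligand of Ccr2, was measured at 0.138 to 6.38 TPM in Shh tumors. Its Myc values ran from 7.30 TPM (43992A) through a median of 76.8 TPM to 532 TPM (43825B), again without overlap, with a log2 fold change of 6.25 ± 1.28 (edgeR adjusted p = 0.00147), which was 5.55 without 43825B and 7.24 without R26P98.

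Ccl8, a ligand of Ccr8, and Ccl12, a further ligand of Ccr2, lie in the same cluster. Ccl8 was at 0.433 to 2.39 TPM in Shh tumors and at a median of 74.5 TPM in Myc tumors, with 644 TPM in 43990A, and its log2 fold change was 7.43 ± 1.25 (edgeR adjusted p = 0.000342). The Myc tumor 43998A was the exception, with 2.32 TPM of Ccl8, which is inside the Shh range in TPM and just above it in normalised CPM. Ccl12 rose less (log2 fold change 3.82 ± 0.90, edgeR adjusted p = 0.00412), from a Shh median of 10.1 TPM and maximum of 25.0 TPM to a Myc median of 92.6 TPM. Of the 11 Myc tumors, 8 exceeded the highest Shh value of Ccl12, and 43998A (10.4 TPM), 43992A (14.1 TPM) and R26P115 (13.9 TPM) did not.

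Ccl9 and Ccl6 are mouse chemokines made mainly by myeloid cells. Ccl9 was near 1 TPM in each Shh tumor (0.515, 0.643, 0.985, 1.07 and 1.72 TPM) and at 23.1 TPM or more in each Myc tumor, with a median of 50.6 TPM. A single tumor, 43998A, held 769.6 TPM, which is 51.4% of the Ccl9 summed over all 16 tumors, and the next highest was 43825B with 203 TPM. The log2 fold change was 7.65 ± 1.14 (edgeR adjusted p = 0.000131), and 6.70 without 43998A. Ccl6, its neighbor, lay at 4.70 to 13.8 TPM in Shh tumors and at a median of 78.9 TPM in Myc tumors (log2 fold change 4.54 ± 0.73, edgeR adjusted p = 0.000244). Here 43998A was the lowest Myc tumor, with 7.37 TPM, and the only one within the Shh range.

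Ccl5 attracts T cells, NK cells and monocytes. It was measured at 0.800, 1.25, 1.67, 6.02 and 10.9 TPM in Shh tumors and from 11.1 TPM (R26P115) through a median of 104 TPM to 2419 TPM (29225D) in Myc tumors. The tumor 29225D held 66.6% of all Ccl5. The subgroups did not overlap, although 29941C (11.3 TPM) and R26P115 lay just above the highest Shh tumor, R26P98. The log2 fold change was 6.75 ± 1.52 (edgeR adjusted p = 0.00287), which was 5.40 without 29225D and 7.47 without R26P98. The T cell markers summed to 18.6 TPM and the NK cell markers to 9.74 TPM in 29225D, inside the ranges of the other Myc tumors (1.59 to 55.5 TPM and 0.757 to 90.3 TPM).

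Ccl4 and Ccl3 are neighboring inflammatory ligands made by macrophages and lymphocytes. Ccl4 was called higher in Myc (log2 fold change 3.26 ± 0.87, edgeR adjusted p = 0.00878), with 0.732 to 4.25 TPM in Shh tumors and a Myc median of 16.7 TPM. The tumor 43998A again lay apart, with 0.224 TPM, below every Shh tumor. Ccl3 was not called (log2 fold change 1.62 ± 0.64, edgeR adjusted p = 0.0631), with medians of 4.90 TPM in Shh and 9.46 TPM in Myc tumors, and was called by DESeq2, and by edgeR once 43998A or R26P115 was left out.

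Ccl11, the eosinophil chemokine eotaxin, was not called (log2 fold change 4.04 ± 1.72, edgeR adjusted p = 0.0811). Its medians were 4.05 TPM in Shh and 3.05 TPM in Myc tumors. The fitted value rests on few tumors, since 43825B stood at 298 TPM (65.2% of the sum over all tumors), 29941C at 107 TPM and R26P123 at 15.3 TPM, whereas the remaining 8 Myc tumors were at or below 4.58 TPM. Without 43825B the log2 fold change was 2.5. Ccl1, a ligand of Ccr8, was called (edgeR adjusted p = 0.0416) from at most 22 counts in a tumor. It exceeded the floor in no Shh tumor and in 5 Myc tumors, the mean level was at least 1.27-fold higher in Myc than the Shh floor, and the call remained in 12 of 24 alternative settings. Leaving out any 1 of 29048, 38594A, 29050A, R26P87, 43825B, 43990A, 29941C, 29225D and R26P123 ended it. Ccl17, Ccl22, Ccl24, Ccl20 and Ccl26 were not called, the last 2 with no tumor above 2 counts.

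**Figure D2:**
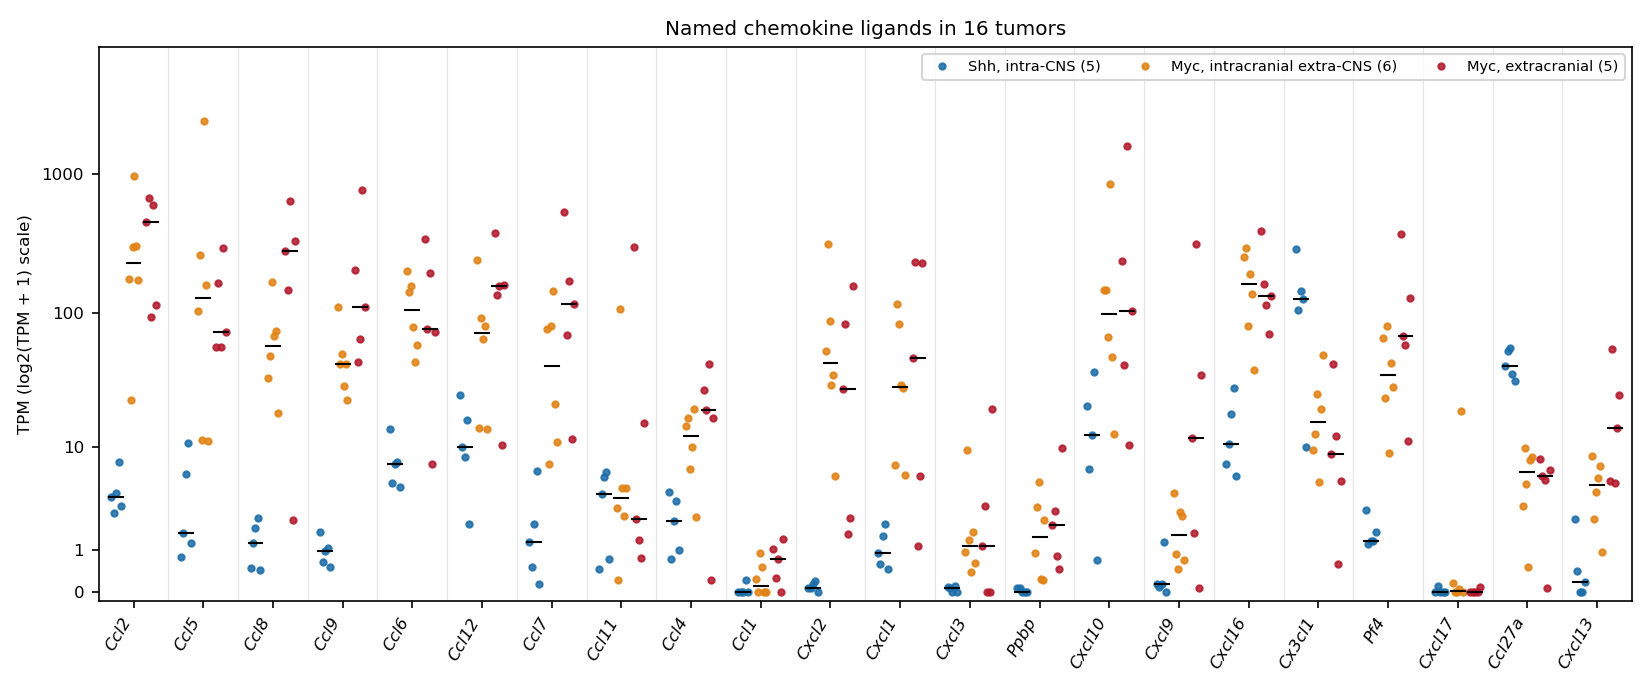
TPM of each named ligand (y axis, log2(TPM + 1) scale) in every tumor, grouped by role along the x axis. Each point is 1 tumor, colored by subgroup and site, and black bars are group medians. For Ccl2, Ccl5, Ccl7, Ccl9, Cxcl2, Cxcl16 and Pf4 all Myc points lie above all Shh points, and for Ccl27a all lie below.

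The ELR CXC ligands bind Cxcr2 and attract neutrophils. Of the 6 in this group, 4 were called higher in Myc (Cxcl1, Cxcl2, Cxcl3 and Ppbp) and 2 were not (Cxcl5 and Cxcl15). The share of all genes called higher in Myc was 13.1%. Cxcl1, Cxcl2 and Cxcl3 are neighbors on chromosome 5, and their promoters are shown because these genes moved together and share a motif. The 250 bases before the start site are given 5′ to 3′ on the coding strand, from RefSeq on GRCm38.p6, with capitals marking matches to a κB-like motif (GGGA and TTCC with 2 bases between them), the kind of sequence bound by NF-κB factors.
Cxcl1 (chr5:90890995-90891244, plus strand): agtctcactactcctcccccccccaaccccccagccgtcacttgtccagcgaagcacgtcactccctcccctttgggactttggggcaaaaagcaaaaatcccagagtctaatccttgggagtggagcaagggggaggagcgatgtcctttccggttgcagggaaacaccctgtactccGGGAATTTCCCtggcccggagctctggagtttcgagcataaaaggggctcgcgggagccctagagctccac
Cxcl2 (chr5:90903649-90903898, plus strand): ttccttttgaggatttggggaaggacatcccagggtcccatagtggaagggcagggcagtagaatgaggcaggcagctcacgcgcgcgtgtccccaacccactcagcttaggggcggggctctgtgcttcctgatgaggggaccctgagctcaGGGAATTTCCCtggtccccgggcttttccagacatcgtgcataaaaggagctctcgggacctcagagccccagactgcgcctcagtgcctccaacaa
Cxcl3 (chr5:90785851-90786100, plus strand): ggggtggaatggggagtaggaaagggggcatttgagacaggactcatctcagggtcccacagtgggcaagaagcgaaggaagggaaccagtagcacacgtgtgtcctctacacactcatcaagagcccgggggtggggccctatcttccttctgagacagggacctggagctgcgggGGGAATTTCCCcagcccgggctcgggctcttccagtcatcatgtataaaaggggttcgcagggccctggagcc
In each of the 3 promoters the motif matched on both strands at overlapping positions, starting 71 (Cxcl1), 97 (Cxcl2) and 73 (Cxcl3) bases before the start site. Searched on both strands, the motif was present in 1.47% of 32851 promoter windows of 300 bases. Windows were found for 29 of the 41 ligands, and those of Cxcl1, Cxcl2, Cxcl3, Cxcl10 and Ccl1 held it. A match is a stretch of letters, and binding was not measured.

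Cxcl2 was the ligand with the largest fitted fold change, a log2 value of 9.87 ± 1.57 (edgeR adjusted p = 0.000221), and 9.23 without 43992A. It was listed at 0, 0.0744, 0.0784, 0.144 and 0.205 TPM in Shh tumors, and only 1 of these 5 tumors had more than 3 counts. In Myc tumors it ranged from 1.62 TPM (43990A) through a median of 35.2 TPM to 314 TPM (43992A). Cxcl1 lay at 0.466 to 2.10 TPM in Shh tumors and at a median of 29.8 TPM in Myc tumors, with 233 TPM in 43987A and 228 TPM in R26P123 (log2 fold change 6.49 ± 1.33, edgeR adjusted p = 0.00152). The Myc tumor 43990A had 1.15 TPM of Cxcl1, within the Shh range, and it was also the lowest Myc tumor for Cxcl2. Cxcl3 exceeded the floor in no Shh tumor and in 9 of 11 Myc tumors, and its mean level in Myc was at least 19.9-fold higher than the Shh floor (edgeR adjusted p = 0.0111). R26P123 held 50.8% of all Cxcl3, at 19.6 TPM, and without it the mean was at least 11.2-fold higher. The Cxcl3 call was lost with limma on log2(TPM + 1). Cxcl5 was not called (log2 fold change 0.28 ± 1.46, edgeR adjusted p = 0.898), with 11.8 TPM in the Shh tumor 29048 and 14.4 TPM in R26P123, and Cxcl15 had 1 count in all.

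The 6 neutrophil markers summed to 7.18 to 13.7 TPM in Shh and 3.63 to 936 TPM in Myc tumors, and the median of each of the 6 was higher in Myc. Their highest sum was in R26P123 (936 TPM) and the next in 43992A (334 TPM), the tumors with the highest Cxcl3. Their lowest sum was in 43998A (3.63 TPM), where Cxcl1 was 5.85 TPM, Cxcl2 was 2.39 TPM and Cxcl3 was listed at 0. The tumor 43990A had low Cxcl1 and Cxcl2 beside a neutrophil sum of 205 TPM.

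The interferon-induced CXC ligands attract activated T cells and NK cells through Cxcr3. Called higher in Myc were 2 of the 3, beside 13.1% of all genes. The promoter of Cxcl10 is shown because it held both motifs searched, the κB-like motif and an interferon-stimulated response element (GAAA and GAAA with 2 bases between them), which was present on either strand in 3.44% of the promoter windows. Capitals mark the response element first and the κB-like motif second, which start 213 and 159 bases before the start site.
Cxcl10 (chr5:92348890-92349139, minus strand): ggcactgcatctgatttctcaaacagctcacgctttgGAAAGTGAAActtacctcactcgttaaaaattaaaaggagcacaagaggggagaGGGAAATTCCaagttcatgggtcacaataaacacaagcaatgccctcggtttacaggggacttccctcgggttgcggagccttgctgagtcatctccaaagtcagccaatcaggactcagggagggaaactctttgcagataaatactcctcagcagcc
The response element was also found in the windows of Ccl19 and Cxcl14, 3 of 29 ligands in all. The window of Cxcl9 held neither motif, which says only that these letters are absent from it.

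Cxcl10 stood at 0.704, 6.66, 12.4, 20.5 and 37.2 TPM in Shh tumors. In Myc tumors it ranged from 10.4 TPM (43998A) through a median of 103 TPM to 853 TPM in 29225D and 1590.4 TPM in 43990A. The log2 fold change was 4.71 ± 1.34 (edgeR adjusted p = 0.0132), 9 of 11 Myc tumors exceeded the highest Shh tumor, and the call was lost among the tumors induced at E6 alone. The tumor 43990A held 47.7% of all Cxcl10, and the log2 fold change was 3.89 without it and 5.33 without R26P98. Cxcl9 was called (log2 fold change 7.15 ± 2.26, edgeR adjusted p = 0.0227), but 83.7% of it came from 43990A, which had 317 TPM against a Myc median of 2.54 TPM and a Shh range of 0 to 1.30 TPM. The log2 fold change was 4.64 without 43990A and 8.83 without R26P98. The call remained in 17 of 24 alternative settings, and was lost with limma on log2(TPM + 1), among the intracranial tumors alone, among the tumors induced at E6, and when any 1 of the Shh tumors 29048, 38594A, 29050A and R26P87 was left out. The tumor 43990A also had the highest sum of T cell markers (55.5 TPM). Cxcl11 was not called (log2 fold change 0.77 ± 1.15, edgeR adjusted p = 0.621) and did not exceed 5.98 TPM in any tumor. GENCODE release M21 classes the gene as a polymorphic pseudogene.

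The 2 ligands made as membrane-bound proteins moved in opposite directions. Cxcl16, which binds Cxcr6 and is made by macrophages and dendritic cells, was at 5.80, 7.36, 10.5, 18.1 and 28.1 TPM in Shh tumors. Every Myc tumor was higher, from 38.3 TPM (R26P115) through a median of 138 TPM to 393 TPM (43825B), and the log2 fold change was 4.12 ± 0.60 (edgeR adjusted p = 0.000115). The range with 1 tumor left out was 3.92 to 4.55. Zmynd15, which overlaps Cxcl16 on the opposite strand, was also called higher in Myc, from 0.965 to 2.89 TPM in Shh to 3.89 to 37.0 TPM in Myc tumors (log2 fold change 3.71 ± 0.52, edgeR adjusted p = 7.8e-05). The libraries were stranded, but whether strand was used in counting is not given in the sources used here, so that the reads of the pair may be mixed.

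Cx3cl1, the neuronal ligand of the microglial receptor Cx3cr1, was lower in Myc tumors, by a log2 fold change of -2.39 ± 0.72 (edgeR adjusted p = 0.0175). It was at 10.03 (R26P87), 105 (38594A), 126 (R26P98), 144 (29050A) and 290.1 TPM (29048) in Shh tumors, and from 0.588 TPM (43998A) through a median of 12.3 TPM to 49.2 TPM (R26P115) in Myc tumors. Thus 4 of 5 Shh tumors lay above all Myc tumors, while R26P87 lay among them. The 5 neuron markers summed to 3603 TPM in 29048, 2239 TPM in 38594A, 468 TPM in 29050A, 458 TPM in R26P87 and 127 TPM in R26P98, beside 12.4 to 480.3 TPM in Myc tumors. Without 29048 the log2 fold change was -1.91 and no longer called, and the call was also lost among tumors induced at E6, among intracranial tumors and against extracranial tumors alone. The part of neurons in this difference was not tested.

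Pf4 and Ppbp are stored in platelet granules, and Pf4 is also made by some macrophages. Pf4 was at 1.23, 1.32, 1.33, 1.69 and 2.89 TPM in Shh tumors and from 8.998 TPM (29225D) through a median of 58.9 TPM to 371 TPM (43825B) in Myc tumors, without overlap, and the log2 fold change was 6.09 ± 0.97 (edgeR adjusted p = 0.000213), and 5.43 without 43825B. Ppbp exceeded the floor in no Shh tumor and in 10 of 11 Myc tumors, with a mean level at least 15.5-fold higher than the Shh floor (edgeR adjusted p = 0.00104), although no tumor exceeded 9.92 TPM. Without R26P123 that bound was 11.2-fold. The 5 platelet markers (Itga2b, Gp1ba, Gp9, Gp5 and Tubb1) were low in both subgroups, with sums of 0.988 to 9.95 TPM in Shh and 4.86 to 24.5 TPM in Myc tumors. Their highest sum was in 43989C, where Pf4 was 65.6 TPM. The tumor with the most Pf4, 43825B, had a platelet sum of 11.1 TPM and the highest macrophage sum, 6287 TPM. Which cells held the Pf4 was not tested.

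Among the homeostatic, lymphoid and epithelial ligands, 1 of 7 tested was called higher in Myc, 1 was called higher in Shh and 5 were not called. Of all genes, 13.1% were called higher in Myc and 12.9% higher in Shh, so that these counts do not set the group apart. Ccl27a, a keratinocyte chemokine that binds Ccr10, was at 31.8, 35.9, 41.2, 52.8 and 55.7 TPM in Shh tumors. All 11 Myc tumors lay below them, from 0.0685 TPM (43998A) through a median of 5.87 TPM to 9.91 TPM (43992A), and the log2 fold change was -2.42 ± 0.62 (edgeR adjusted p = 0.00682). It was called in all 25 alternative settings, between -3.01 and -1.86. The gene lies within a region of near-identical copies on chromosome 4 and overlaps Il11ra1 on the opposite strand, so that its reads may be shared with these genes. Il11ra1 itself went the other way, from 22.1 to 40.4 TPM in Shh to 24.9 to 60.7 TPM in Myc tumors (log2 fold change 1.08 ± 0.24, edgeR adjusted p = 0.00273). The copy Ccl27b had 1 count in all tumors.

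Cxcl13, the B cell attractant of lymphoid follicles, was called higher in Myc (log2 fold change 4.86 ± 1.34, edgeR adjusted p = 0.0109). It was listed at 0, 0, 0.190, 0.416 and 2.34 TPM in Shh tumors and ranged from 0.940 TPM (R26P115) through a median of 5.59 TPM to 54.9 TPM (43987A) in Myc tumors, of which 10 of 11 exceeded the highest Shh tumor. The log2 fold change was 6.80 without 29048 and 4.23 without 43987A, and the call was lost among the tumors induced at E6 and among the intracranial tumors alone. The 4 B cell markers summed to 7.75 TPM in 43987A and to at most 16.3 TPM in any tumor. Cxcl12, which retains stem cells and leukocytes through Cxcr4, was not called (log2 fold change 0.88 ± 0.84, edgeR adjusted p = 0.438), with 4.21 to 27.1 TPM in Shh and 1.29 to 87.1 TPM in Myc tumors. The same held for Cxcl14 (0.52 ± 0.92, edgeR adjusted p = 0.681), Ccl28 (0.84 ± 0.90, edgeR adjusted p = 0.479) and Ccl25 (0.33 ± 0.33, edgeR adjusted p = 0.455). Ccl25, the gut and thymus chemokine, ranged from 7.14 to 27.5 TPM over all 16 tumors. It overlaps Elavl1 on the opposite strand, so that the reads of this pair may also be mixed. Ccl19, Ccl21a, Ccl21b and Ccl21c, the ligands of Ccr7, had 0 counts in every tumor. The Ccl21 genes are near-identical copies, and reads that map to several copies may have been lost in counting. Ccl19 and Ccl21a also overlap 4930578G10Rik on the opposite strand, where reads may have been lost as well. Counts of 0 therefore do not show that these ligands were absent.

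Of the ligands with a mean count of at least 50, 9 of 25 had subgroups that did not overlap in TMM-normalised CPM, against 15.0% of 14807 genes with such counts. Higher in Myc were 8 (Ccl2, Ccl5, Ccl7, Ccl8, Ccl9, Cxcl2, Cxcl16 and Pf4), against 8.02% of these genes, and higher in Shh was 1 (Ccl27a), against 6.94%. The remaining ligands are Xcl1, which attracts cross-presenting dendritic cells and was not called (log2 fold change 2.42 ± 1.42, edgeR adjusted p = 0.197), and Cxcl17. Cxcl17, a mucosal chemokine, was found in 1 tumor. R26P170 held 19.0 TPM, which is 97.9% of the total, and no other tumor exceeded the floor. The summed epithelial markers of R26P170 were 122 TPM, inside the range of the other Myc tumors (9.36 to 1168 TPM).

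Chemokine ligands lie largely in gene clusters, and 4 clusters held 21 of the 37 ligands tested. The counts that follow are of ligands called higher in Myc, as 13.1% of all genes were. On chromosome 11, the cluster from 82035571 to 82305690 (GRCm38) holds Ccl2, Ccl7, Ccl11, Ccl12, Ccl8 and Ccl1, of which 5 of 6 were called, and that from 83525778 to 83664683 holds Ccl5, Ccl9, Ccl6, Ccl3 and Ccl4, of which 4 of 5 were called. On chromosome 5, the cluster from 90759360 to 90905938 holds the ELR ligands and Pf4, with 5 of 7 called. Cxcl9, Cxcl10 and Cxcl11 lie from 92321347 to 92365485, with 2 of 3 called. Neighbors did not always move together. Cx3cl1 on chromosome 8 lies between Ccl22 and Ccl17, within 94745590 to 94812036, and neither neighbor was called (log2 fold changes 2.32 ± 1.36, edgeR adjusted p = 0.197, and 0.30 ± 0.94, edgeR adjusted p = 0.822).

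The leading ligand differed among the Myc tumors. The summed TPM of the 39 ligands with TPM values was 95.4 to 562 in Shh tumors (median 327) and 513 to 4974 in Myc tumors (median 1859). In 4 Shh tumors Cx3cl1 was the leading ligand, with 36.8% to 51.7% of the sum, and in R26P87 it was Ccl27a (33.3%). The leading ligand in the Myc tumors was Ccl2 in 43987A, 29941C, R26P170 and R26P115, at 20.5% to 33.8% of the sum. It was Ccl5 in 29225D (48.6%), Cxcl10 in 43990A (43.1%), Ccl9 in 43998A (41.4%), Cxcl2 in 43992A (20.5%), Cxcl16 in 43989C (16.1%), Ccl8 in R26P123 (15.6%) and Ccl7 in 43825B (14.1%). The tumor 43998A combined high Ccl9 and Ccl2 (601 TPM) with the lowest Myc values of Ccl4, Ccl6, Ccl8, Cxcl10 and Ccl12. Its macrophage marker sum was 2506 TPM, the median of the Myc tumors, and its sum of 5 microglia markers was the highest of all tumors (918 TPM). This tumor grew in the mouth, so that the sum does not identify microglia. Of the 5 markers only 2 had the higher median in Myc, and Sall1 and Siglech had 0 counts in at least 1 of the 16 tumors.

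**Figure D3:**
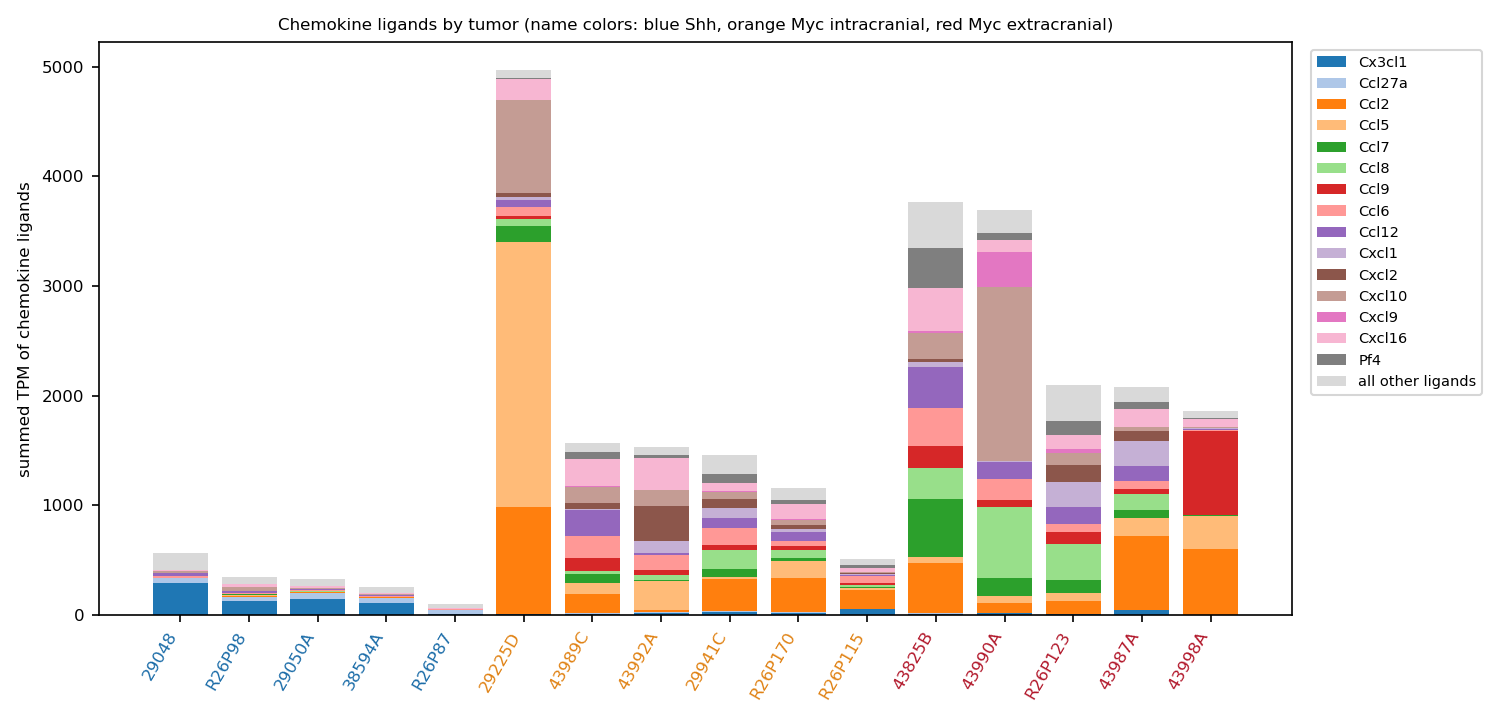
Summed TPM of the chemokine ligands in each tumor (y axis), stacked by ligand. Tumors are ordered within each group along the x axis, and the bars of the 5 Shh tumors reach at most 562 TPM, while single ligands fill 48.6% of the bar of 29225D, 43.1% of 43990A and 41.4% of 43998A.

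Within the Myc tumors the site of growth was compared next, with 6 intracranial extra-CNS tumors against 5 extracranial ones. Of 36 ligands tested, 0 passed the threshold in edgeR, against 0.00470% of 21261 genes (1 gene). The lowest adjusted p of a ligand was 0.346. At an unadjusted p under 0.05 there were 7 ligands, of which 6 were lower in intracranial tumors (Cxcl9, Xcl1, Cxcl14, Ccl9, Cxcl13 and Ccl8) and 1 was higher (Cxcl17), beside 2606 of all genes. These ligands are named because of these values. DESeq2's Wald test called 2 ligands lower in intracranial tumors, Cxcl9 (log2 fold change -5.16, DESeq2 adjusted p = 0.00326) and Cxcl14 (-2.48, DESeq2 adjusted p = 0.0497), among 490 genes, and limma on log2(TPM + 1) called 0. The edgeR value of Cxcl9 was -5.19 ± 1.51. It was -2.66 without 43990A, and reversed to 1.90 when 43990A was counted as intracranial, the site that the study's sample table gives for it. Cxcl14 had medians of 5.95 TPM in intracranial and 19.6 TPM in extracranial tumors (-2.48 ± 0.79, edgeR adjusted p = 0.346), and the difference was -1.06 without R26P123. Ccl9 had medians of 42.4 and 111 TPM (-2.26 ± 0.73, edgeR adjusted p = 0.346, and -1.06 without 43998A), with leukocyte sums of 228 to 1326 TPM in intracranial and 597 to 1798 TPM in extracranial tumors. Ccl2 (-0.31 ± 0.76, edgeR adjusted p = 0.895) and Cxcl16 (-0.07 ± 0.54, edgeR adjusted p = 0.969) were among the ligands with the smallest site differences. A difference that misses the threshold with 6 against 5 tumors is not shown to be absent.

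Chemokine receptors are the other genes of the pathway, and 11 of 24 were called higher in Myc, 0 higher in Shh and 13 not called, in the same test, which called 13.1% of all genes higher in Myc and 12.9% higher in Shh. Ccr1, which binds Ccl9, Ccl6, Ccl5 and Ccl7 among others, rose from 1.84 to 3.37 TPM in Shh to 17.3 to 171 TPM in Myc tumors without overlap (log2 fold change 5.02 ± 0.57, edgeR adjusted p = 1.62e-05). Ccr2, the receptor of Ccl2, had medians of 0.544 TPM in Shh and 28.6 TPM in Myc tumors (4.64 ± 1.11, edgeR adjusted p = 0.00439, and 3.93 without 43825B and 5.25 without 29050A). Ccrl2, which binds chemerin without signalling, had medians of 1.43 and 4.64 TPM (2.69 ± 0.58, edgeR adjusted p = 0.00211). Cxcr2, the neutrophil receptor of the ELR ligands, stood at 0 to 0.109 TPM in Shh and 0.0972 to 7.81 TPM in Myc tumors (6.31 ± 1.23, edgeR adjusted p = 0.001). Cxcr3, the receptor of Cxcl9 and Cxcl10, had medians of 0.150 and 0.792 TPM (3.96 ± 0.95, edgeR adjusted p = 0.00469), and its call was lost with limma on log2(TPM + 1).

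Several receptor calls rest on single tumors or few counts. Ccr7, whose ligands Ccl19 and Ccl21a had 0 counts, had medians of 0.280 and 1.41 TPM and 151 TPM in 43825B (5.69 ± 1.79, edgeR adjusted p = 0.0226), and was called in 19 of 25 alternative settings. Its log2 fold change was 3.45 without 43825B and 6.68 without R26P98, and leaving out any 1 of 29048, 38594A, 29050A and R26P87 ended the call. Ccr3, the eosinophil receptor of Ccl11, exceeded the floor in no Shh tumor and reached 36.2 TPM in 43998A, against a Myc median of 0.185 TPM (edgeR adjusted p = 0.0173). Ccl11 was 0.758 TPM in that tumor. Its Myc mean was at least 73-fold higher than the Shh floor, and at least 10.7-fold without 43998A. The call was lost with the intracranial tumors alone and with limma on log2(TPM + 1). Ccr1l1, Cxcr1 and Cxcr5 were called from Myc medians of 0.245, 0.0649 and 0.0837 TPM, and remained called in 16, 15 and 21 of 24 alternative settings. The Myc mean of Cxcr1 was 0.708 times the Shh floor and that of Cxcr5 1.18 times, so that no size of either difference can be given. Among the 13 not called were Cxcr4 (-0.35 ± 0.29, edgeR adjusted p = 0.366), the receptor of Cxcl12, and Cx3cr1 (0.90 ± 0.61, edgeR adjusted p = 0.26), the receptor of Cx3cl1, with medians of 43.6 TPM in Shh and 59.6 TPM in Myc tumors. Cx3cr1 was called when the extracranial Myc tumors alone were set against Shh.

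**Figure D4:**
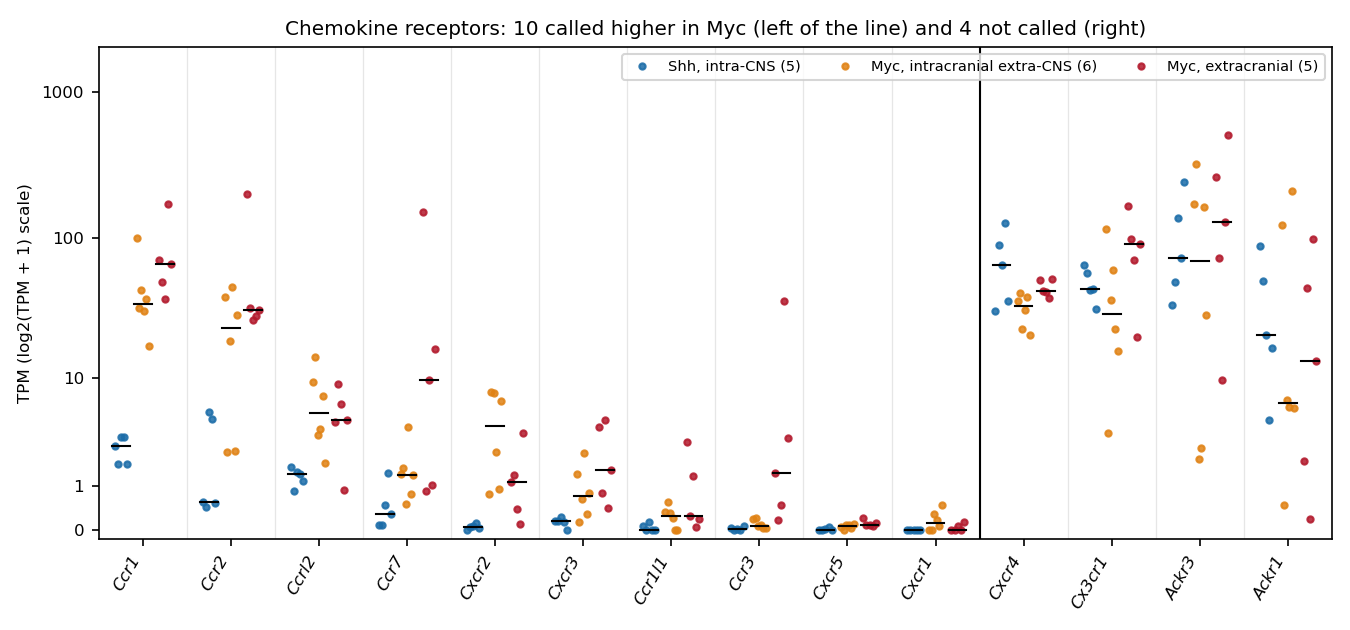
TPM of chemokine receptors (y axis, log2(TPM + 1) scale) in every tumor, colored by subgroup and site, with group medians as black bars. To the left of the line are 10 of the 11 receptors called higher in Myc, of which Ccr1 shows no overlap between 3.37 TPM in Shh and 17.3 TPM in Myc, and to the right 4 of the 13 not called.

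The relation of the ligands to leukocyte content was examined within the 11 Myc tumors. The log2(TPM + 1) of each of 30 ligands with at least 1 TPM in 3 or more of these tumors was correlated with the log2 summed TPM of the 5 leukocyte markers, with 100000 permutations and adjustment over the 30. By Pearson's r 0 of 30 ligands passed an adjusted p of 0.05, while 20 had a positive r. Ccl9 had the highest value (r = 0.72, permutation p = 0.0126, adjusted p = 0.379) and was the only ligand to pass by rank with all 11 tumors (Spearman's rho = 0.85, permutation p = 0.00155, adjusted p = 0.0465). Without the 2 tumors farthest from the median marker sum, 43825B and R26P115, its r was 0.64. Leaving out 1 tumor at a time gave rho of 0.81 to 0.89 and adjusted p-values of 0.0372 to 0.151 for Ccl9, which passed by rank only without 43987A, 43998A or R26P123. Ccl25 passed by rank without 43825B, 43998A or R26P123, and Ccl12 without 43998A. By Pearson's r, Ccl9 passed without 43998A (r = 0.87) and Cxcl14 without R26P123. Cxcl16 had r = 0.63 (permutation p = 0.0355, adjusted p = 0.506), which fell to 0.02 without the same 2 tumors and so rests on them. Ccl5 had r = 0.17 (permutation p = 0.627, adjusted p = 0.885), Cxcl2 had r = -0.0014 (permutation p = 0.997, adjusted p = 0.997), and Ccl25 had the lowest value (r = -0.52, permutation p = 0.103, adjusted p = 0.511, rho = -0.81, permutation p = 0.00397, adjusted p = 0.0595). The ligand and marker values of a tumor share 1 library, and the values of Ccl25 may hold reads of Elavl1, which overlaps it.

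**Figure D5:**
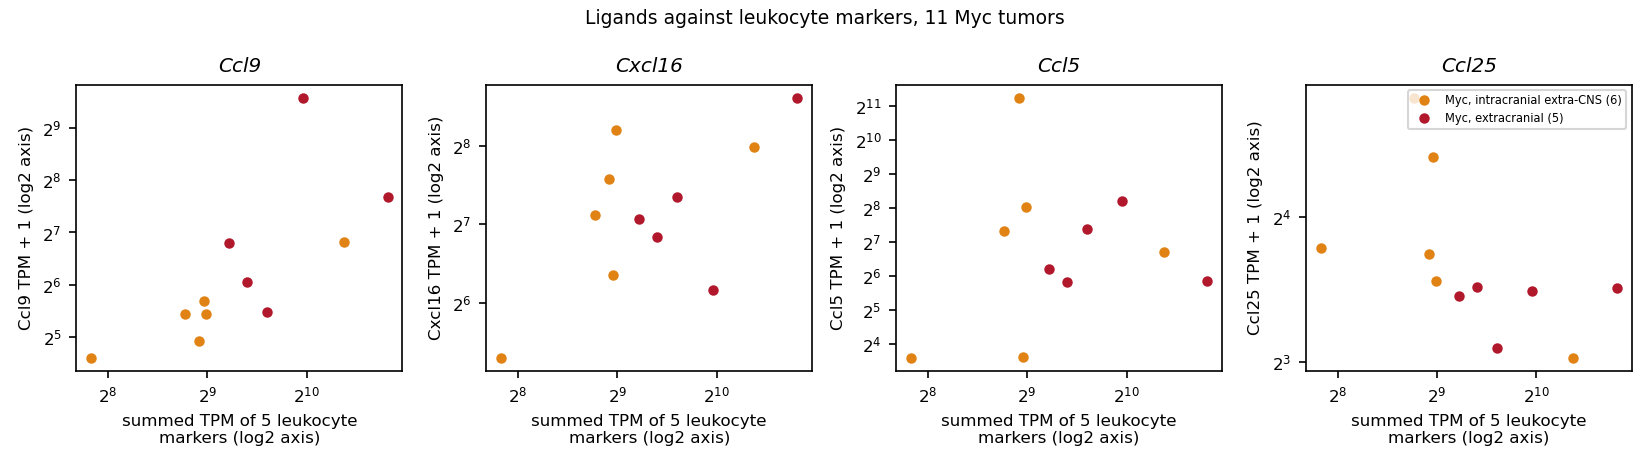
TPM + 1 of Ccl9, Cxcl16, Ccl5 and Ccl25 (y axes, log2) against the summed TPM of 5 leukocyte markers (x axes, log2) in the 11 Myc tumors, colored by site. The rank correlation was 0.85 for Ccl9, which passed with all 11 tumors but not in most runs with 1 left out, and -0.81 for Ccl25, which did not pass with all 11 (adjusted p = 0.0595 by permutation). Pearson's r was 0.17 for Ccl5.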

How the data were processed

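RNA of 16 tumors was sequenced from stranded, poly(A)-selected libraries. The authors deposited read counts per gene and, for the same genes with few exceptions, TPM values. Per the labels, their processing used Trim Galore, FastQC, STAR 2.5.3a and Picard on mm10. The gene annotation behind the counts, and whether strand was used, are not given in the sources used here. Counts were tested with edgeR 4.0.16 (TMM, quasi-likelihood) in R 4.3.3. All genes with a count were fitted, at an adjusted p of 0.05 and an absolute log2 fold change of 1. DESeq2 1.42.0, limma 3.58.1 on log2(TPM + 1), other filters and scalings, subsets by site and by tamoxifen day, the tumor name scheme as a covariate and leaving out each tumor were the alternatives, and the tests were checked on simulated data. TPM served for levels, as deposited by the authors. Named with values were the ligands past a threshold, the 10 of highest mean TPM, those with a mean count of at least 50 whose subgroups did not overlap, and those with most of their TPM in 1 tumor. Others are named only to complete a group. Members and lists were chosen with earlier results of these data known. P-values measure the spread between mice. Values of 1 receptor counted among those tested are not reported here.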

Additional observations from a re-analysis of the deposited data

Results flagged for a closer look

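Within each group of 5 or 6 tumors, the log2(TPM + 1) of 22 ligands was examined for a highest or lowest tumor lying far from the others, by Dixon's criterion. The values printed below are TPM, whereas distances were judged on the log scale. This marked 11 of 66 ligand and group pairs, and chance marks about 1 in 20 groups of normally spread values. The ligands were partly chosen for having most of their TPM in 1 tumor, and their log values need not be normally spread. The share marked is therefore not comparable with that rate. No explanation was tested. The extracranial tumor 43998A lay far below the other 4 of its group in 3 ligands. It had 0.0685 TPM of Ccl27a (others 5.43 to 8.02), 0.224 TPM of Ccl4 (others 16.7 to 42.7) and 2.32 TPM of Ccl8 (others 148 to 644).

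Among the intracranial extra-CNS tumors, 29941C lay far above the others with 107 TPM of Ccl11 (others 0.213 to 4.58), R26P170 with 19.0 TPM of Cxcl17 (others 0 to 0.160) and 43992A with 9.43 TPM of Cxcl3 (others 0.394 to 1.71). In the extracranial group, R26P123 stood out with 0.0935 TPM of Cxcl17 beside 0 in the others. Among the Shh tumors, 29048 stood out with 2.34 TPM of Cxcl13 (others 0 to 0.416) and R26P98 with 1.30 TPM of Cxcl9 (others 0 to 0.148). R26P98 also held 0.219 TPM of Ccl1, and 38594A held 0.106 TPM of Cxcl17, beside 0 in the other 4 Shh tumors. The Ccl1 value and the Cxcl17 values of R26P123 and 38594A are at or under the floor of 3 counts.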

How the results depend on the processing

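The number of ligands called was 20, and 16 to 21 under the alternatives run (17 to 21 with 1 tumor left out), with 15 to 20 of the 20 kept. Over all genes 5689 were called, and 3533 to 7236 under the same alternatives. Of 546 alternative log2 fold changes of the 22 ligands named by rule, which leaves out Ccl3, 517 kept their direction and their side of the threshold, 27 kept the direction only, 2 passed the threshold newly (Ccl11 at 6.03 and Cxcl17 at 8.67 among tumors induced at E6) and 0 reversed. The 2 Myc tumors induced at E6 are 43825B and R26P170, which held most Ccl11 and most Cxcl17, and as Cxcl17 exceeded the floor in no Shh tumor its fitted value is no usable fold. The 11 calls among receptors became 5 with limma on log2(TPM + 1) and 7 with the intracranial tumors alone, and lay between 8 and 12 with 1 tumor left out. The cause was not tested. The count of ligands differing by site was 0 in edgeR and 2 in DESeq2, and 0 with any 1 tumor left out. The site value of Cxcl9 reversed to 1.90 with 43990A counted as intracranial, which moves the tumor that held most Cxcl9. The count of ligands related to leukocyte markers by Pearson's r was 0, and 0 to 1 with 1 tumor left out. No paired analysis was possible because no mouse gave more than 1 tumor and the replicate numbers carry no pairing. Ligands under the floor, such as Ccl20, were not measurable at this depth. Ccl1 and Cxcl17 were not tested under the edgeR expression filter, and DESeq2 gave no adjusted p for Cxcl17 and Cxcl9.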
